A study of Mus musculus with 78 samples.

Results

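Gene expression was followed in wild-type mouse brain from embryonic day 14 (E14) to the day of birth (P0) in 2 mixed genetic backgrounds, which the labels name A and B. The 12 arrays were chosen by their labels, 3 for each age and background, out of 78 arrays in the series. The whole series compares wild types with mutants of the LIS1 complex, which moves the nucleus of migrating neurons, and asks how far such mutations alter the same genes. The 4 groups of the main comparison carry no mutant allele: wild type of mixed background A at E14, wild type of mixed background B at E14, and the same 2 backgrounds at P0. Heterozygous Lis1 ko/+ and Ndel ko/+ brains at E14 and P0 (12 arrays) were fitted separately. An alternative fit used all 24 wild-type arrays of the series, which include inbred brains and brains of postnatal day 14. The labels give the tissue as brain, with no region, no strain make-up of the backgrounds, no sex and no litter. Each array holds total RNA of a replicate, and nothing in the labels says whether the replicates are single brains or pools, so p-values measure the spread between these samples.

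Between these ages the mouse forebrain ends most of its production of neurons. Progenitor cells that line the ventricles divide, and their daughters migrate outward, extend axons and dendrites, and begin to form synapses around birth. Glial cells, thyroid hormone supply and the blood-brain barrier mature over the same days. The account below sets a list of 93 best known markers aside when it ranks the largest changes, and describes mainly other genes and functions.

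The tissue label was set against defining markers. Tubb3 and Stmn2, cytoskeletal proteins of neurons, lay at log2 values of 11.96 to 12.42 and 12.29 to 13.23 on all 12 arrays, while the muscle genes Myog and Myl1 and the lens gene Cryaa stayed between 3.30 and 4.41. Xist, an RNA of female cells, ranged from 4.50 to 11.99 in E14 mixed B and reached at most 4.80 in the other groups. The Y-linked Uty ranged from 4.20 to 6.99 in E14 mixed B. Female tissue was thus seen in E14 mixed B only, and the part of sex in the changes was not tested. The first principal component, with 74.5% of the variance, separated the ages. Within E14 mixed A the arrays differed in the means of marker lists, taken after each array was centred on its median gene. The mean log2 value of 8 markers of midbrain, hindbrain and spinal cord was 6.98 in replicate 1 and 4.75 and 4.59 in replicates 2 and 3. It was 5.86 to 6.25 in E14 mixed B and 4.44 to 4.54 at P0. Markers of meninges and fibroblasts (15 genes) averaged 6.01 in E14 mixed A replicate 3 and 7.81 to 8.27 on the other 11 arrays. Among P0 mixed A arrays, replicate 3 lay apart from the other 2, with a root mean square difference of 0.41 log2 units from its nearest neighbour against 0.25 between those. At P0, the signal of the 3' actin control probe set exceeded that of the 5' one by 0.28 to 0.36 log2 units in mixed B and by 0.15 to 0.21 in mixed A, a sign of RNA length and labelling, with 0.16 to 0.22 at E14. For many calls, named changes and counts that moved when these arrays were left out, the value without them is given. Where no such value is given, a count of few members may still have moved.

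**Figure D1:**
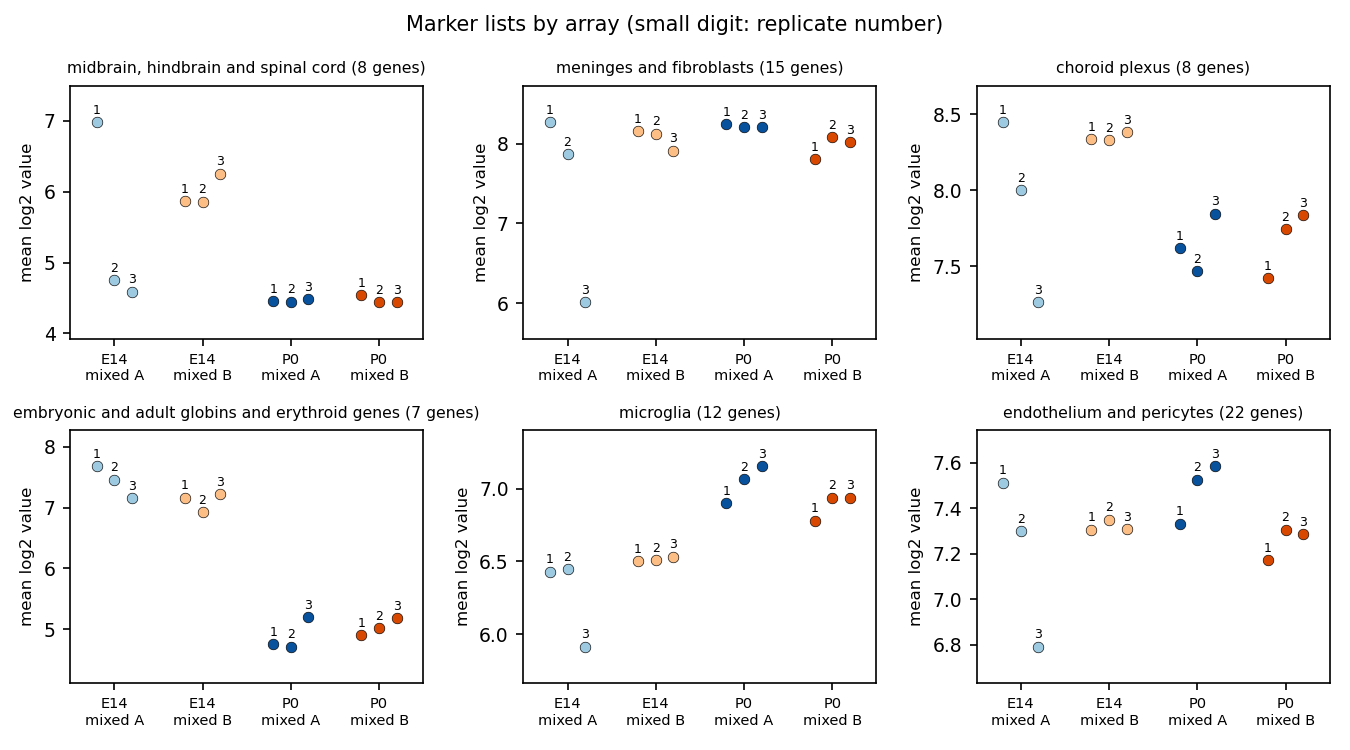
Mean log2 value of 6 lists of marker genes (vertical axes) on each of the 12 arrays, after each array was centred on its median gene. Arrays are shown by group, with the replicate number above each point. E14 mixed A replicates 2 and 3 lie at 4.75 and 4.59 for the markers of midbrain, hindbrain and spinal cord, near the P0 arrays, while replicate 1 lies at 6.98.

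Levels of single genes are given below as deposited log2 values, in the order of replicates 1, 2 and 3. Means of marker lists are of centred values, as above. A change is the log2 value at P0 minus that at E14 after each array was centred on its median gene, with its standard error (SE); it therefore says how a gene moved relative to the median gene, which in the deposited values lay 0.20 lower at P0 in mixed A and 0.24 lower in mixed B. In mixed A, 7918 of 11974 genes tested with limma (66.1%) passed an adjusted p of 0.05, and in mixed B 6414 did (53.6%). A gene's change over both backgrounds is the mean of both changes. Its SE is the larger of the 2 SEs, not the SE of that mean. A gene is said to have risen or fallen where it passed in both backgrounds in the same direction, by the larger of its 2 p-values. By that rule 2721 genes rose (22.7%) and 2570 fell (21.5%). For 6481 genes (54.1%) the ages did not overlap in either background. At least 2-fold rises were called for 853 genes (7.12%) and falls of that size for 821 (6.86%), and 114 rose and 155 fell at least 4-fold. Without centring, 1646 genes rose and 4238 fell, so the balance of rises and falls depends on that step. Leaving out E14 mixed A replicates 2 and 3 gave 2520 rises and 2314 falls, and leaving out P0 mixed A replicate 3 gave 2888 and 2879.

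**Figure D2:**
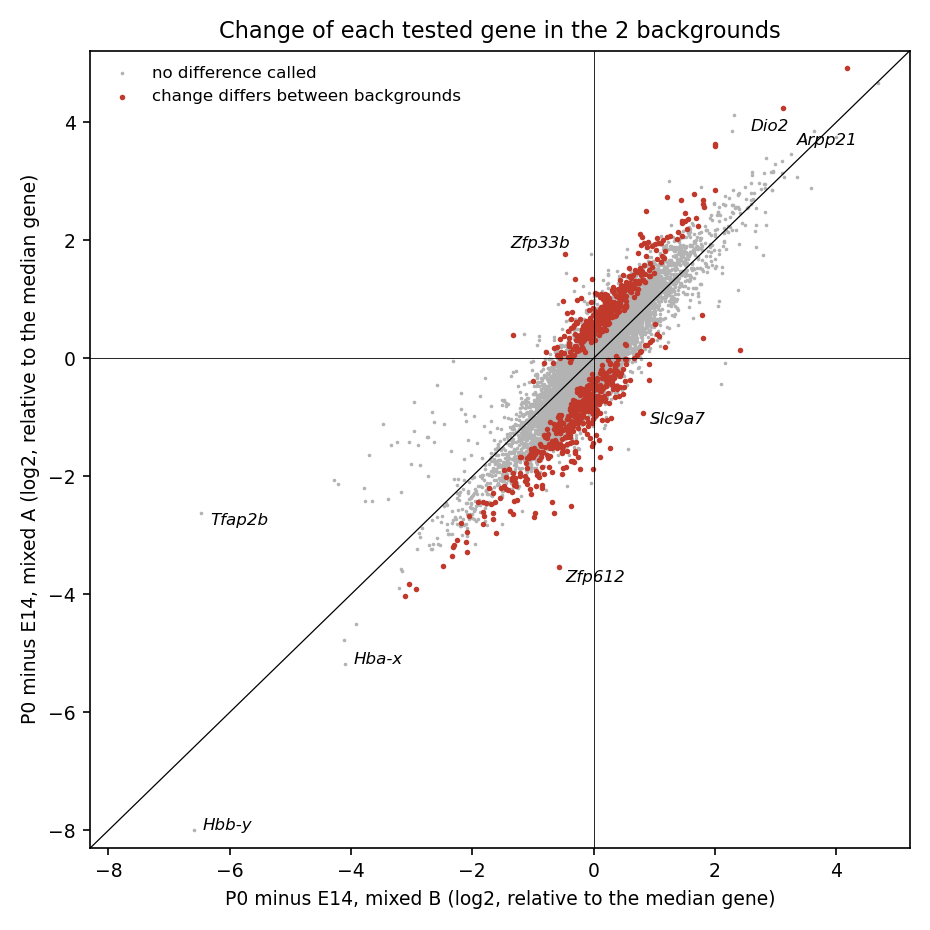
Each point is 1 of the 11974 tested genes, with its change from E14 to P0 in mixed B (horizontal axis) and in mixed A (vertical axis), both in log2 units relative to the median gene; the diagonal marks equal changes. Red points are the 753 genes whose change differed between the backgrounds. Tfap2b fell further in mixed B, but it is not among the genes named for a called difference. Its values split the E14 mixed A arrays, so its gap between the backgrounds depends on the arrays used.

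The lists described below were set beside these shares: a list with about 22.7% of its members rising and 21.5% falling, and a median near -0.01, behaves like the average gene. Recombination repair, the Hedgehog pathway, chromatin copying, splicing factors and the nuclear pore lay at the falling end. Calcium sensors, transmitter receptors, transporters, thyroid hormone handling and synaptic adhesion lay at the rising end.

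**Figure D3:**
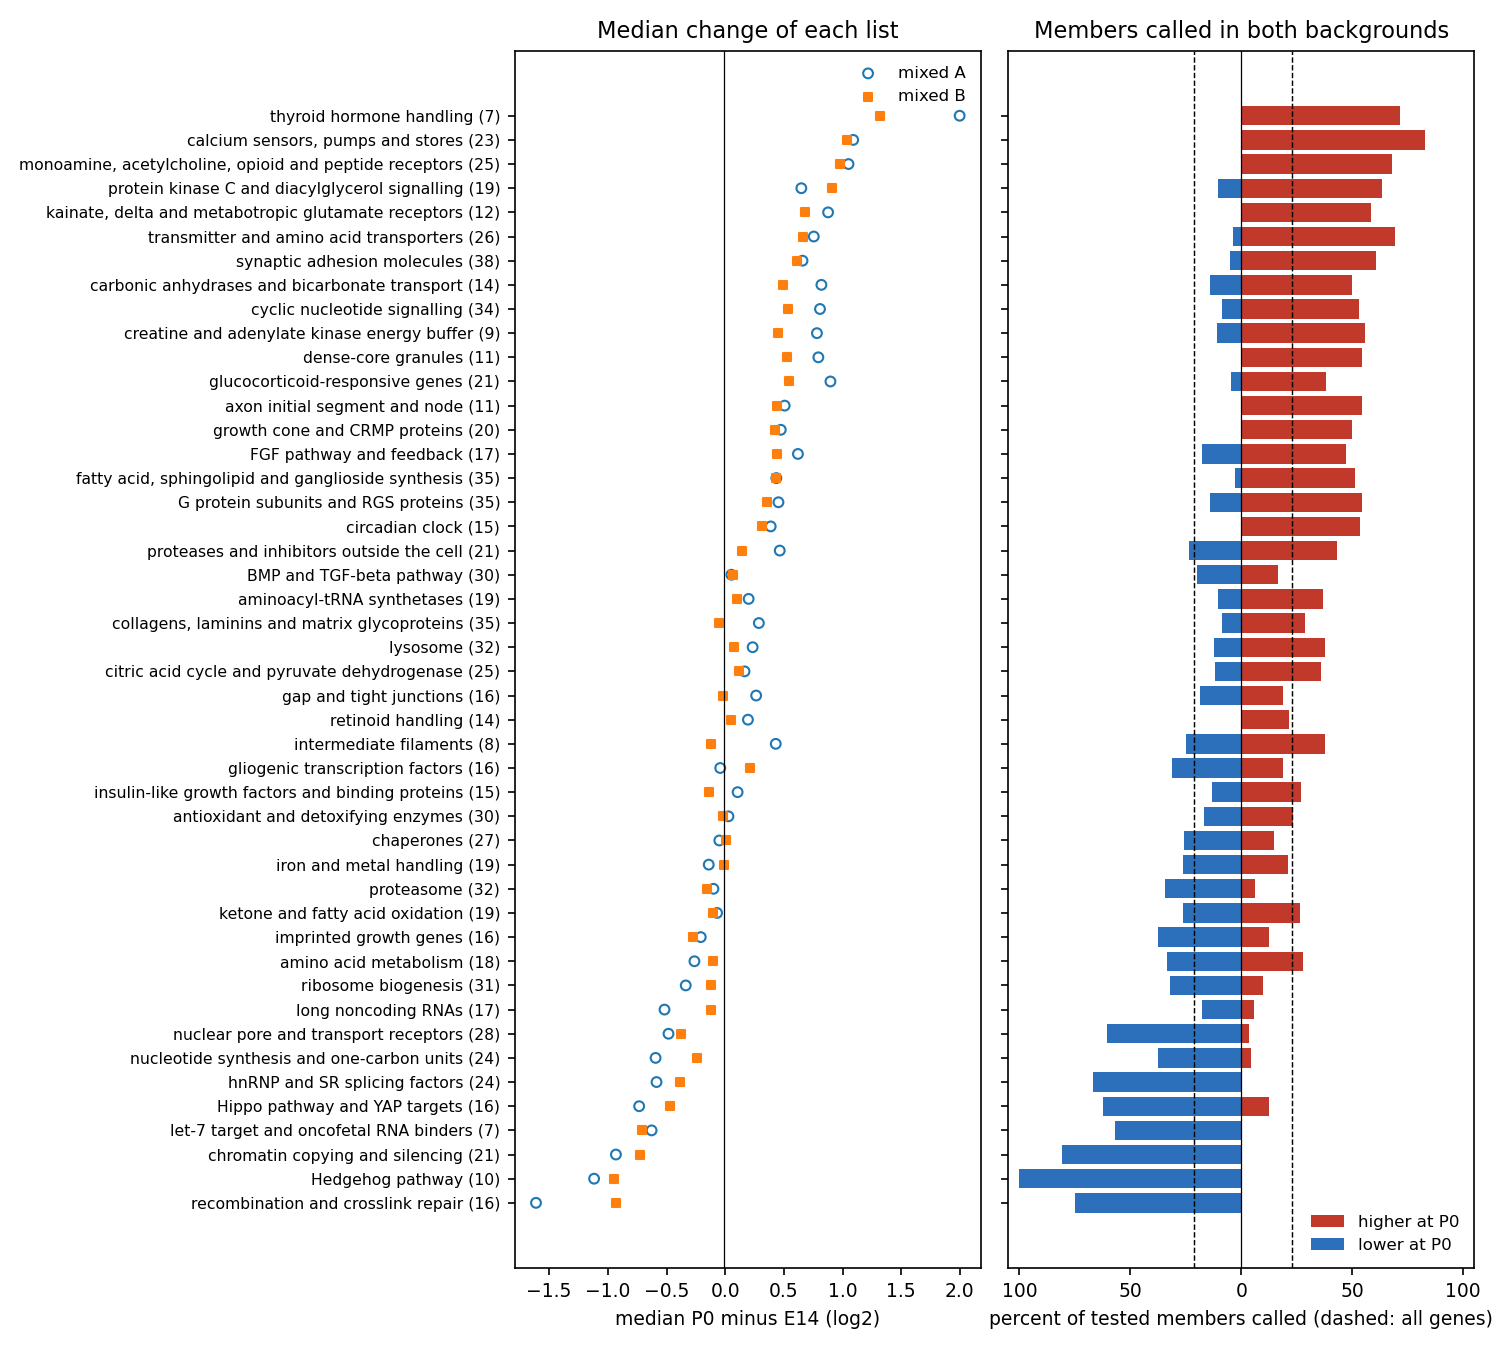
Left, the median change from E14 to P0 (log2, relative to the median gene) of the tested members of each list in mixed A and mixed B, with the number of members tested in parentheses. Right, the percentage of members that rose or fell in both backgrounds, beside the 22.7% and 21.5% of all genes (dashed). Calcium sensors, pumps and stores had 19 of 23 members rising, and the Hedgehog pathway 10 of 10 falling.

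Of the 15 largest falls outside the best known markers, 5 were genes of cell division outside the usual proliferation markers, counted after their values were seen. Ect2, an exchange factor for small GTPases at the cleavage furrow, lay at 8.39, 8.73 and 8.62 in E14 mixed A and 8.62, 8.29 and 8.51 in E14 mixed B, and at 4.54, 4.59 and 3.93 (mixed A) and 5.07, 5.18 and 5.16 (mixed B) at P0. All 6 embryonic arrays lay above all 6 newborn ones, and the change was -3.57 ± 0.18 (SE, n = 3 per group; adjusted p = 9.3e-08), a fall of 11.9-fold. In P0 mixed A, Ect2 lay close to the range of the muscle and lens genes Myog, Myl1 and Cryaa, so its fold is inexact. Esco2, which acetylates cohesin during DNA copying, ranged from 7.30 to 8.11 at E14 and from 3.80 to 4.22 at P0, with a change of -3.55 ± 0.16. Depdc1a, a protein of dividing cells, changed by -3.44 ± 0.12, Ska1, which couples kinetochores to microtubules, by -2.95 ± 0.14, and Anln, a scaffold of the cleavage furrow, by -2.89 ± 0.14. For each of these 5 genes the lowest of 6 embryonic values lay above the highest of 6 newborn values; the largest falls were named among genes whose ages did not overlap within a background.

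Some of these falling genes share short letters in their promoters, which are shown here because they moved together. The windows run from 250 bases before to 50 after a transcription start in RefSeq (GRCm38.p6), and were searched on both strands for TTTCGCGC or TTTGGCGC (letters bound by E2F factors), TTTGAA or TTCGAA (the cell cycle homology region, CHR) and CCAAT; none of these contains another. RefSeq gave promoters for 668 of the 821 genes that fell at least 2-fold. Of 146 promoters of genes that fell at least 4-fold, 12 (8.22%) held an E2F motif and 57 (39.0%) a CHR, against 1.51% and 13.3% of 12510 promoters of tested genes, and 0.813% and 19.2% of all 32851 promoters. CCAAT was found in 54.1% of them, against 37.5% over tested genes. At the same 4-fold threshold, promoters of genes that rose held an E2F motif in 1.72% (2 of 116) and a CHR in 18.1%. At 2-fold these shares were 3.55% and 23.9% for falls, and 0.433% and 11.9% for rises. These shares are descriptions of letters, and no factor was measured. Ect2 and Depdc1a hold CHR and CCAAT letters but no E2F motif; Cenpl (a centromere protein, change -2.36) and Cdk1 (the mitotic kinase, -2.01) hold all 3 kinds and were chosen after their values were seen. In the promoters below, 5′ to 3′ on the gene's strand, capitals mark the E2F, CHR and CCAAT letters in either direction.
Ect2, chr3:27153805-27154104, minus strand: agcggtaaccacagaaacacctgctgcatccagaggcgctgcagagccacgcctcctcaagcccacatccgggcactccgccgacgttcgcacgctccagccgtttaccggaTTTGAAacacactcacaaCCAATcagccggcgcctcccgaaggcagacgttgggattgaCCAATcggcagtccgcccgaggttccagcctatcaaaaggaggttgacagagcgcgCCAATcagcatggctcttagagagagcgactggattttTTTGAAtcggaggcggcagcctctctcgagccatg
Depdc1a, chr3:159495183-159495482, plus strand: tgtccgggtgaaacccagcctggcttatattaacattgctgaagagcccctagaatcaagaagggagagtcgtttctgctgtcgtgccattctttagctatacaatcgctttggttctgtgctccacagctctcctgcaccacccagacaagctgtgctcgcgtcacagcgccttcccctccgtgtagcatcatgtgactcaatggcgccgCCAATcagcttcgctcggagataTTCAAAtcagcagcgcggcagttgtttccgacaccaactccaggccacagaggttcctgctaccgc
Cenpl, chr1:161070517-161070816, plus strand: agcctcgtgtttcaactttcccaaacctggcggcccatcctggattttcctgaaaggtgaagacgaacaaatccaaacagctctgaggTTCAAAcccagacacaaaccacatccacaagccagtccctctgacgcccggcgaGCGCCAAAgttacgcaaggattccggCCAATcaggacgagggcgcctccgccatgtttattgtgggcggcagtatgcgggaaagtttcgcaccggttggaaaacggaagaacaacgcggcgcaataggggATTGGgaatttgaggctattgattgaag
Cdk1, chr10:69352863-69353162, minus strand: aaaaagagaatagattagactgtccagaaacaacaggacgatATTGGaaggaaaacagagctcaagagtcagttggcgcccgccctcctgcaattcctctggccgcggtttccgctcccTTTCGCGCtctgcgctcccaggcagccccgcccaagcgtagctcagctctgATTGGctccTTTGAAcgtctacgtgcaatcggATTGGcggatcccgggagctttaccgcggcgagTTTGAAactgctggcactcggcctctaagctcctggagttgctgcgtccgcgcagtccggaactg

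Repair of broken and crosslinked DNA fell with them. Of 16 members tested, 12 fell and 0 rose, with a median change of -1.27. Brca1, which directs breaks to homologous repair, lay at 7.80, 7.89 and 8.67 (mixed A) and 7.60, 7.36 and 7.51 (mixed B) at E14 and at 5.08, 5.33 and 5.48 (mixed A) and 5.39, 5.57 and 4.83 (mixed B) at P0. The newborn arrays all lay below the embryonic ones, and the change was -2.31 ± 0.23 (adjusted p = 1.9e-05). Rad54l, a DNA motor of strand pairing, changed by -2.24 ± 0.14, and Palb2, a partner of Brca2, by -1.94. Brca2 itself fell by less, with a change of -0.79.

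Chromatin proteins that work behind the replication fork or silence genes also fell, 17 of 21 with 0 rising and a median of -0.91. Uhrf1, which brings the maintenance methyltransferase to newly copied DNA, stood at 9.64, 9.80 and 10.36 in E14 mixed A and 9.30, 9.05 and 9.29 in E14 mixed B, then at 6.53, 6.69 and 7.07 (mixed A) and 6.42, 6.73 and 6.78 (mixed B) at P0. Its groups did not overlap between ages, and its change was -2.66 ± 0.18 (adjusted p = 8.1e-07). Atad2, a bromodomain ATPase, changed by -2.84 ± 0.19. The 3 core members of Polycomb complex 2 all fell: Ezh2, its methyltransferase, by -1.66 ± 0.12, Eed by -1.18 and Suz12 by -0.74. Hdac1 changed by -1.49 and its close relative Hdac2 by -0.39. Enzymes that make DNA building blocks gave 9 falls and 1 rise among 24, or 15 and 0 without centring: thymidine kinase Tk1 changed by -2.15 ± 0.15 and ribonucleotide reductase Rrm2 by -1.84, while Impdh1, of guanine nucleotide synthesis, rose by 0.58.

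Proteins that handle RNA formed a broad, shallower fall. Of 24 hnRNP and SR splicing factors, 16 fell and 0 rose, with a median change of -0.51. Srsf10 lay at 10.40, 10.66 and 10.32 (mixed A) and 10.50, 10.30 and 10.41 (mixed B) at E14 and at 9.11, 8.68 and 8.70 (mixed A) and 9.09, 9.19 and 9.19 (mixed B) at P0, and changed by -1.23 ± 0.13 (adjusted p = 3.7e-05). Ptbp1, which holds back neuronal exons in progenitors, changed by -1.10 ± 0.07, with 6 of 6 newborn arrays below every embryonic array. Nuclear pore proteins and transport receptors gave 17 falls and 1 rise among 28; leaving out E14 mixed A replicates 2 and 3 gave 13 falls and 2 rises. Kpna2, an importin alpha of dividing cells, changed by -1.69 ± 0.07 and Kpna1, an importin alpha of many tissues, rose by 0.30. In ribosome biogenesis, 10 of 31 fell, among them Noc3l (-1.39) and the pseudouridine synthase Dkc1 (-0.97) and 3 rose, against 1 rise without E14 mixed A replicate 1, 1 without replicates 2 and 3, and 19 falls and 0 rises without centring.

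Targets of let-7 microRNAs and RNA binders of fetal tissue gave 4 falls and 0 rises among 7. Hmga2, an architectural chromatin protein whose messenger is a target of let-7 microRNAs, stood at 8.07, 7.60 and 8.05 (E14 mixed A) and 7.43, 7.46 and 7.58 (E14 mixed B), and at 4.41, 4.49 and 4.56 (mixed A) and 4.46, 4.67 and 4.66 (mixed B) at P0. The newborn values lay close together and far below the embryonic ones, with a change of -2.95 ± 0.13 (adjusted p = 3.0e-08), or 7.7-fold. Since the newborn values of Hmga2 lay close to the range of the muscle and lens genes Myog, Myl1 and Cryaa, its fold is inexact. Igf2bp1, an RNA-binding protein of fetal tissue, ranged from 8.01 to 8.38 at E14 and 5.26 to 5.55 at P0 and changed by -2.48 ± 0.12. Igf2bp3 changed by -0.67, and its call was lost (adjusted p = 0.069) without E14 mixed A replicates 2 and 3. Zinc finger proteins with symbols in Zfp gave 94 falls and 15 rises among 294, or 150 and 8 without centring, led by Zfp758 (-2.46) and Zfp950 (-2.16), whereas Zfp365, which rose the most, changed by 1.77. Cytosolic ribosomal proteins of the large subunit lay near the background instead, with 3 rises and 7 falls among 24. Genes with symbols in Rps, the stem of the small subunit, gave 3 and 3 among 29. That stem also takes in kinases named Rps6k, so the count is not of ribosomal proteins alone. Without centring none rose and 16 and 15 fell.

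**Figure D4:**
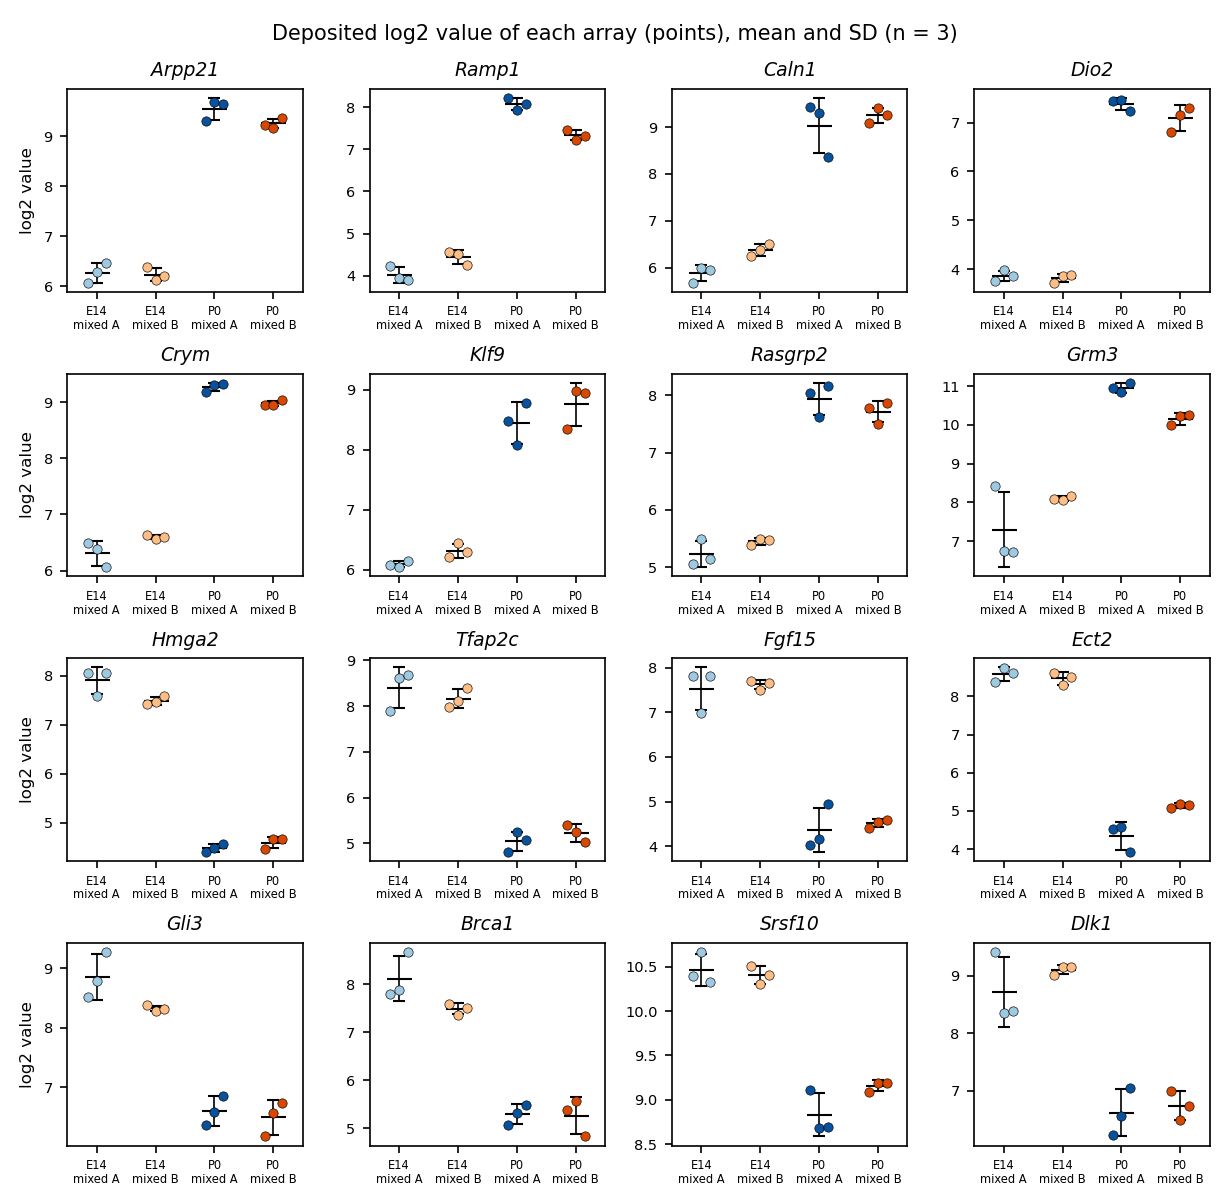
Deposited log2 values (vertical axes, each with its own range) of 16 genes on the 12 arrays, by age and background; points are arrays, and bars are the mean and SD of 3. In each panel the 6 newborn arrays lie on 1 side of the 6 embryonic ones; Grm3 and Dlk1 also split E14 mixed A replicate 1 from replicates 2 and 3.

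All 10 tested members of the Hedgehog pathway fell, with a median change of -1.03; without E14 mixed A replicates 2 and 3 the count was 9 of 10. In this pathway a secreted ligand frees Smoothened from its receptor Patched, and Gli factors then change transcription. The ligand gene Shh changed by -1.19, and Disp1, which releases the ligand, by -0.87. The coreceptors Cdon, Gas1 and Boc changed by -1.71 ± 0.21, -1.33 and -0.46, the receptor Ptch1 by -0.70 and the transducer Smo by -0.77. Sufu, the inhibitor that holds Gli proteins, changed by -0.80. Gli3, a factor that acts mainly as a repressor, lay at 8.51, 8.79 and 9.28 in E14 mixed A, 8.38, 8.29 and 8.31 in E14 mixed B, 6.36, 6.58 and 6.86 in P0 mixed A and 6.17, 6.57 and 6.73 in P0 mixed B. Its ages did not overlap, and it changed by -1.84 ± 0.19 (adjusted p = 2.4e-05), with Gli2, the main activator, at -1.65 ± 0.16. Ligand, receptors, inhibitor and factors thus moved in 1 direction, and less RNA per cell and fewer cells of a type cannot be told apart in these bulk samples. Intraflagellar transport proteins, which build the cilium where Hedgehog signals, gave 6 falls and 1 rise among 14, led by Ift80 (-1.24).

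Genes of the Hippo pathway gave 10 falls and 2 rises among 16. Yap1, the coactivator that Hippo kinases keep out of the nucleus, ranged from 8.82 to 9.27 at E14 and from 7.18 to 7.78 at P0, a change of -1.35 ± 0.10, and its DNA-binding partner Tead2 changed by -2.01 ± 0.14. The kinase Stk4 and its scaffold Sav1 changed by -0.48 and -0.88. The commonly used YAP targets split: Ccn1 fell (-1.0), while Ccn2 rose by 1.82 ± 0.36 from 5.79, 5.55 and 5.10 (mixed A) and 5.47, 5.44 and 4.83 (mixed B) to 7.40, 6.80 and 7.58 (mixed A) and 5.76, 6.93 and 7.35 (mixed B). In P0 mixed B replicate 1, Ccn2 lay at 5.76, within the range of the E14 mixed A arrays.

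Of 17 genes of FGF signalling and its feedback 8 rose and 3 fell, or 7 and 5 without centring. Fgf15, a ligand of embryonic progenitors, lay at 7.80, 6.98 and 7.80 (mixed A) and 7.71, 7.51 and 7.66 (mixed B) at E14 and 4.02, 4.15 and 4.93 (mixed A) and 4.41, 4.54 and 4.59 (mixed B) at P0, a change of -2.93 ± 0.24 (adjusted p = 1.5e-06). Of the receptors, Fgfr3 and Fgfr2 fell (-1.28 and -0.73). Of the 8 rises, 5 were feedback inhibitors and transcription factors that FGF signals switch on, grouped after their values were seen. Spry2 rose by 0.80, Dusp6 by 0.74, Spred2 by 0.65, Etv5 by 1.10 and Etv4 by 1.23 ± 0.13. Members of that kind without a call were not counted. Fgf12 and Fgf13, which stay inside the cell and bind sodium channels, rose by 1.46 and 0.60. In the BMP and TGF-beta list, 5 rose and 6 fell of 30, close to the background. Inhba, which encodes the subunit of activin A, rose by 2.28 ± 0.18, with values of 4.68 to 5.25 at E14 and 6.34 to 7.74 at P0, and Ltbp1, which stores latent TGF-beta in the matrix, changed by -2.35 ± 0.21.

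Among other large falls, Tfap2c, an AP-2 transcription factor of cortical progenitors, stood at 7.89, 8.62 and 8.69 in E14 mixed A and 7.99, 8.12 and 8.39 in E14 mixed B and at 4.81, 5.24 and 5.08 (mixed A) and 5.40, 5.24 and 5.02 (mixed B) at P0, and changed by -2.94 ± 0.20. Rhbdl3, a rhomboid-like membrane protein, ranged from 8.28 to 9.29 at E14 and from 4.71 to 5.23 at P0 and changed by -3.38 ± 0.20. Imprinted growth genes gave 6 falls and 2 rises among 16, or 7 and 0 without centring. Grb10, a brake on insulin receptor signalling, changed by -1.90 ± 0.08, Asb4 by -1.73, Mest by -1.65 and Plagl1, a zinc finger regulator of the imprinted group, by -1.18. Dlk1, a Notch-like membrane protein, changed by -2.02 ± 0.27, or -2.37 without E14 mixed A replicates 2 and 3 and -1.84 without replicate 1; its values in E14 mixed A were 9.41, 8.35 and 8.38, so replicate 1, the array with high hindbrain markers, lay about 1 unit above the other 2.

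Thyroid hormone handling had the highest median of the lists described, 1.66 over 7 genes, with 5 rising and 0 falling. Thyroid hormone enters the brain as thyroxine through carriers, is activated inside glial cells and then acts on nuclear receptors. The carrier Slco1c1 of brain capillaries rose by 1.66 ± 0.19. Dio2, which turns thyroxine into the active hormone, lay at 3.77, 3.97 and 3.85 (mixed A) and 3.72, 3.87 and 3.88 (mixed B) at E14 and 7.43, 7.46 and 7.25 (mixed A) and 6.80, 7.16 and 7.31 (mixed B) at P0. Embryonic values were all below 4, newborn values all above 6, and the change was 3.60 ± 0.14, or 12.1-fold (adjusted p = 9.3e-09). The embryonic values of Dio2 lay within the range of the muscle and lens genes Myog, Myl1 and Cryaa, so its fold is inexact. Crym, which binds the active hormone in the cytosol, lay at 6.06 to 6.63 at E14 and 8.95 to 9.32 at P0, a change of 2.89 ± 0.11. The receptor gene Thra changed by 0.94, and Klf9, a transcription factor induced by thyroid hormone and by glucocorticoids, rose by 2.61 ± 0.18, with values of 6.04 to 6.44 at E14 and 8.07 to 8.97 at P0. Without E14 mixed A replicates 2 and 3, 5 of 8 tested members rose.

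Genes known to respond to glucocorticoids rose in 8 of 21 cases, with 1 fall. Fam107a, an actin-binding protein, lay at 4.17, 4.0 and 3.93 (mixed A) and 4.23, 4.23 and 4.04 (mixed B) at E14 and 6.04, 6.82 and 7.34 (mixed A) and 8.16, 7.16 and 7.26 (mixed B) at P0. The newborn arrays spread over more than 2 log2 units and still lay above every embryonic one, with a change of 3.24 ± 0.30. Sult1a1, a sulphotransferase for phenols, rose by 3.13 ± 0.20 and the metal-binding Mt1 by 1.77 ± 0.26. Mt1 in E14 mixed A lay at 7.89, 9.32 and 8.62, so that replicate 2 overlapped the newborn arrays of mixed A. The kinase Sgk1 rose by 1.19 and the zinc finger factor Zbtb16 by 1.11, while Dusp1, a phosphatase of MAP kinases, changed by -0.74. Of 15 circadian clock genes 8 rose and 0 fell, by at most 1.07 (the repressor Bhlhe40); the count was 3 rises and 1 fall without centring and 6 rises without E14 mixed A replicate 1.

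Genes of calcium handling rose in 19 of 23 cases, with 0 falls and a median of 1.08. Without E14 mixed A replicates 2 and 3 the count was 16 of 23. Among the sensors, Caln1 (calneuron) lay at 5.68, 5.99 and 5.95 (mixed A) and 6.24, 6.38 and 6.50 (mixed B) at E14 and at 9.43, 9.30 and 8.36 (mixed A) and 9.10, 9.40 and 9.26 (mixed B) at P0, a change of 3.23 ± 0.23 (adjusted p = 7.1e-07). Necab1, an EF-hand protein of neurons, changed by 3.06 ± 0.22, Ncald (neurocalcin) by 2.22 ± 0.14 and Vsnl1 (visinin-like 1) by 2.04 ± 0.17. Pumps of the plasma membrane rose too, Atp2b2 by 1.49, Atp2b1 by 1.08 and Atp2b3 by 0.78. All 3 sodium-calcium exchangers rose, Slc8a1 by 1.90, Slc8a3 by 1.17 and Slc8a2 by 0.78, and the store release channels Ryr2 and Ryr3 by 1.35 and 1.08.

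Enzymes that act behind G protein-coupled receptors rose as well. In cyclic nucleotide signalling, 18 rose and 3 fell of 34, or 13 and 8 without centring. Adcy1, a calcium-stimulated adenylyl cyclase, stood at 8.25, 8.14 and 8.34 in E14 mixed A, 8.41, 8.57 and 8.56 in E14 mixed B, 10.38, 10.32 and 10.13 in P0 mixed A and 10.54, 10.49 and 10.60 in P0 mixed B. The spread within each group was small beside the gap between ages, and the change was 2.24 ± 0.08 (adjusted p = 9.3e-09). Pde1a, a calcium-dependent phosphodiesterase, rose by 2.37 ± 0.17 and Ppp1r1b, the dopamine-regulated phosphatase inhibitor DARPP-32, by 1.5. Arpp21, another substrate of the cyclic AMP kinase, had the largest rise of the list, 3.36 ± 0.13, with values of 6.07 to 6.47 at E14 and 9.17 to 9.69 at P0; another of its probe sets, brighter on these 12 arrays, gave 0.75 (adjusted p = 0.60). Among protein kinase C and diacylglycerol genes 12 of 19 rose and 2 fell (12 and 0 without P0 mixed A replicate 3), led by Rasgrp2, a calcium- and diacylglycerol-regulated exchange factor for Rap, at 2.70 ± 0.16, and by the kinase Prkcb at 1.56. G protein subunits and RGS proteins gave 19 rises and 5 falls among 35: Gng7 and Gnal, the G protein subunits of striatal dopamine signalling, rose by 2.23 and 2.03, while Rgs16, which shortens G protein signals, changed by -1.25.

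Receptors for monoamines, acetylcholine and peptides rose in 17 of 25 cases, and 0 fell. Ramp1, the accessory subunit of the receptor for calcitonin gene-related peptide, lay at 4.23, 3.94 and 3.89 (E14 mixed A) and 4.56, 4.51 and 4.26 (E14 mixed B), then at 8.21, 7.93 and 8.07 (mixed A) and 7.45, 7.21 and 7.32 (mixed B) at P0. Ages did not overlap, and the change was 3.68 ± 0.13, or 12.8-fold; it was 4.24 in mixed A and 3.12 in mixed B, a tested difference (adjusted p = 0.009, or 0.055 without E14 mixed A replicates 2 and 3). At E14 Ramp1 lay in or just above the range of the muscle and lens genes Myog, Myl1 and Cryaa, so its fold is inexact. Ntsr1, the neurotensin receptor of deep-layer cortical neurons, changed by 2.64 ± 0.21 and the dopamine receptor Drd1 by 2.44 ± 0.32. The somatostatin receptor Sstr1 rose by 2.19, and the muscarinic receptor Chrm1 and the serotonin receptor Htr1a by 1.78 and 1.72. Kainate, delta and metabotropic glutamate receptors gave 7 rises and 0 falls among 12. Grm5, which couples to calcium release, changed by 2.57 ± 0.13. Grm3, which lowers cyclic AMP in glia and neurons, stood at 8.42, 6.74 and 6.73 (mixed A) and 8.09, 8.05 and 8.18 (mixed B) at E14 and 10.94, 10.84 and 11.09 (mixed A) and 9.98, 10.22 and 10.25 (mixed B) at P0, so that its change of 3.06 ± 0.34 varies with the E14 mixed A array used, 2.50 without replicates 2 and 3 and 3.35 without replicate 1.

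Transporters for transmitters and amino acids gave 18 rises and 1 fall among 26, or 13 and 3 without centring. Slc6a11, a GABA transporter of astrocytes, rose by 2.43 ± 0.12, with values of 4.97 to 5.46 at E14 and 7.08 to 7.97 at P0. The glutamate transporters Slc1a1 of neurons and Slc1a3 of glia rose by 1.74 and 1.25, and Slc7a5, which carries large neutral amino acids, by 1.15. Over all solute carriers outside the mitochondrial family, 78 rose and 19 fell of 201, or 48 and 41 without centring.

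Molecules that join synapses and shape axons followed. Of 38 synaptic adhesion molecules, 23 rose and 2 fell, with a median of 0.67. Lrrc4c, a ligand of netrin-G, rose by 1.53 ± 0.09, the secreted Lgi1 by 1.46, the calsyntenin Clstn2 by 1.46 and the neuroligin Nlgn1 by 1.15. The 2 that fell were Lrrtm4 (-1.18) and Cntnap2 (-0.82), both of which bind partners across the synapse or the axon membrane. At the axon initial segment and node 6 of 11 rose: Cntn1, an adhesion protein of axons, changed by 2.19 ± 0.12 and the spectrin Sptbn4 by 1.02. Cargo of dense-core granules rose in 6 of 11 cases; the secreted neuropeptide precursor Vgf lay at 5.08, 4.93 and 5.12 (mixed A) and 5.64, 5.55 and 5.5 (mixed B) at E14 and 7.69, 7.40 and 7.76 (mixed A) and 7.90, 7.62 and 7.61 (mixed B) at P0, a change of 2.57 ± 0.12 (adjusted p = 4.8e-08). Genes with symbols in Syt gave 9 rises and 0 falls among 14. That stem covers synaptotagmins, the calcium sensors of release, and can take in the related Sytl proteins. Growth cone and CRMP proteins gave 10 rises and 0 falls among 20, or 6 and 2 without centring, with the growth inhibitors of the Nogo receptor system at the top, Omg at 1.61 and Lingo1 at 1.51 ± 0.11.

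Further genes with the largest rises belong to no pathway list above. Met, the receptor of hepatocyte growth factor, lay at 5.62, 5.27 and 5.55 (mixed A) and 5.33, 5.37 and 5.38 (mixed B) at E14 and at 8.62, 8.34 and 8.10 (mixed A) and 8.29, 8.29 and 8.23 (mixed B) at P0, a change of 3.10 ± 0.13 (adjusted p = 2.2e-08). Gda, a guanine deaminase of dendrites, changed by 3.22 ± 0.28, and Grp, gastrin-releasing peptide, by 3.15 ± 0.15. Scrg1, a small secreted protein, changed by 3.07 ± 0.12, Myo5b, a motor for recycling endosomes, by 2.98 ± 0.14 and Col19a1, a collagen made by some interneurons, by 2.91 ± 0.11. In all of these 6 genes, named by the same rule, the newborn arrays lay above the embryonic ones. The matrix proteins Mgp, an inhibitor of calcification, and Ccn3 rose by 3.05 ± 0.14 and 3.12 ± 0.16. Ptgds, which makes prostaglandin D2 in meninges and glia, rose by 3.23 ± 0.41; at E14 it lay at 9.28, 9.01 and 7.29 in mixed A, lowest in replicate 3, where the meningeal markers were lowest too, and its rise was 2.85 without replicates 2 and 3. The part of the meninges in that value was not tested.

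In energy metabolism, the buffer of creatine and adenylate kinases gave 5 rises and 1 fall among 9: adenylate kinase Ak5 rose by 2.31 ± 0.15 and the mitochondrial creatine kinase Ckmt1 by 1.76 ± 0.27, while Ak4 changed by -0.40. Of 25 citric acid cycle genes 9 rose and 3 fell, and 4 and 9 without centring; the mitochondrial malic enzyme Me3, at 1.70 ± 0.11, moved the most. Ketone and fatty acid oxidation stayed near the background with 5 rises and 5 falls among 19 (2 and 10 without centring). Rises included the ketone enzymes Bdh1 (0.67) and Oxct1 (0.46), and falls the fat oxidation enzymes Cpt2 (-1.11) and Hadhb (-0.55). Synthesis of fatty acids and sphingolipids gave 18 rises and 1 fall among 35, or 12 and 7 without centring. The fatty acid carrier Fabp3 rose by 1.68 ± 0.18, the desaturase Scd1 by 1.59 ± 0.21 and B4galnt1, which builds complex gangliosides, by 1.23. The serine synthesis genes Psat1 (-1.02) and Phgdh (-0.73) fell, as did the cystathionine lyase Cth (-1.47), whereas the synthase Cbs of the step before it rose by 1.44 ± 0.12.

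In protein synthesis and turnover, several lists depended on the scaling. Of 19 aminoacyl-tRNA synthetases, 7 rose and 2 fell, by at most 0.57 (Nars), and the list's median of 0.17 became -0.04 without centring. Proteasome subunits gave 11 falls and 2 rises among 32 (23 and 1 without centring), the falls reaching -0.62 (Psmc4). Psmb10, an inducible catalytic subunit, went the other way: it lay at 6.90, 6.64 and 6.64 (mixed A) and 6.87, 6.90 and 6.79 (mixed B) at E14 and 8.0, 7.90 and 8.20 (mixed A) and 7.74, 7.73 and 7.61 (mixed B) at P0, a rise of 1.29 ± 0.11 (adjusted p = 6.0e-06). Lysosomal genes gave 12 rises and 4 falls among 32, or 5 and 6 without centring, with the cathepsin Ctsh at 1.52 and the galactosidase Gla at -0.86. Subunits of the V-type ATPase, the proton pump of lysosomes and synaptic vesicles, gave 9 rises and 1 fall among 15, or 5 and 3 without centring. Chaperones gave 4 rises and 7 falls among 27, or 2 and 15 without centring, and antioxidant enzymes 7 and 5 among 30, or 4 and 11; the small heat shock protein Cryab (1.67) and the glutathione transferase Gstm1 (1.73) rose the most in them.

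In the extracellular space, of 35 collagens, laminins and matrix glycoproteins, 10 rose and 3 fell, and 8 and 7 without E14 mixed A replicates 2 and 3 (8 and 5 without centring): Tnr and Tnc, the tenascins around neurons and glia, rose by 1.44 and 1.44, and Sparcl1, a protein of astrocytes that aids synapses, by 1.58 ± 0.24. Col2a1, a fibrillar collagen of embryonic neuroepithelium and cartilage, changed by -1.83 ± 0.18. Serpina3n, a secreted protease inhibitor, rose by 2.47 ± 0.25 and the inhibitors Timp3 and Timp2 by 1.34 and 1.23. Of the gliogenic transcription factors 3 rose and 5 fell among 16, and 5 and 5 without P0 mixed A replicate 3: Olig1 rose by 2.21 ± 0.14, while the Notch targets Hes1 and Hes5 changed by -1.67 and -1.07. Rxrg, a retinoid receptor, rose by 2.27 ± 0.19. Of 19 genes of iron and metal handling 4 rose and 5 fell, or 2 and 8 without centring; among the falls were the copper exporter Atp7a (-1.47 ± 0.12) and the ferroxidase Heph (-1.47 ± 0.19).

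Several transcription factors of midbrain, hindbrain and neural tube split the E14 mixed A arrays in the way the hindbrain markers did. Of 8 tested markers of midbrain, hindbrain and spinal cord 3 fell and 1 rose (Hoxa3, of the hindbrain, by 0.61), and 6 fell and 1 rose of 14 tested without E14 mixed A replicates 2 and 3. Tfap2b, an AP-2 transcription factor of midbrain, hindbrain and neural crest, lay at 10.36, 5.60 and 5.19 in E14 mixed A, 10.53, 10.33 and 10.42 in E14 mixed B, 3.97, 3.86 and 4.87 in P0 mixed A and 3.85, 3.58 and 3.75 in P0 mixed B. It was thus high on 4 of 6 embryonic arrays, and E14 mixed A replicates 2 and 3 lay less than 1 unit above the highest newborn array. Its change was -2.62 in mixed A and -6.47 in mixed B; within mixed A it was -5.93 without replicates 2 and 3 and -0.96 without replicate 1. En2, which patterns midbrain and cerebellum, gave -2.06 in mixed A, or -4.29 without replicates 2 and 3 and -0.93 without replicate 1, and -4.29 in mixed B. The same split of E14 mixed A was seen for Ebf3 (10.65, 7.58 and 7.14), Lhx1 (8.99, 5.90 and 6.25), Irx3 (8.43, 5.08 and 4.52) and Ebf2 (8.62, 5.84 and 5.90), transcription factors of differentiating neurons and of the posterior neural tube. Their joint changes of -3.09, -3.03, -2.99 and -2.88 became -2.54, -2.54, -2.39 and -2.42 without E14 mixed A replicate 1, and -4.19, -4.00, -4.20 and -3.80 without replicates 2 and 3. Within mixed A, Irx3 changed by -2.20, or -0.99 and -4.62 in the same order. Otx2, of midbrain and choroid plexus, changed by -2.85 ± 0.49, or -2.52 and -3.50, and Hoxb2 of the hindbrain by -1.72 ± 0.43, or -1.37 and -2.41. The call of Tfap2b (adjusted p = 0.047 by limma) ended when any 1 array of E14 mixed B (0.066 for each) or P0 mixed B (0.066 to 0.067), or P0 mixed A replicate 1 or 2 (0.11), was left out. That of En2 ended without P0 mixed A replicate 1 (0.054), that of Irx3 without P0 mixed A replicate 1 (0.060) or 2 (0.059), and that of Hoxb2 without E14 mixed B replicate 2 (0.076) or 3 (0.050) or P0 mixed B replicate 3 (0.052). Since the labels name no region, the share of hindbrain in each sample and expression per cell cannot be told apart for these genes.

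Blood and the other cell types of the brain gave the following values. Embryonic globins fell the furthest of any genes named: Hbb-y by -7.30 ± 0.28 from 12.56, 12.05 and 11.13 in E14 mixed A and 10.89, 10.68 and 11.05 in E14 mixed B to 3.81, 3.59 and 3.76 (mixed A) and 3.89, 4.22 and 4.03 (mixed B) at P0, and Hba-x by -4.64 ± 0.21. Hbb-bh1 changed by -1.91 and Hba-a2 by -1.10, and probe sets of globin genes in near-identical copies can share signal. Microglial markers gave 4 rises and 0 falls among 12, or 6 and 0 without E14 mixed A replicates 2 and 3, with the complement gene C1qc at 1.46 ± 0.22 and C1qa at 1.36; the list's mean was 5.92 to 6.53 at E14 and 6.78 to 7.15 at P0. Of 22 endothelial and pericyte markers 3 rose and 0 fell, or 3 and 3 without E14 mixed A replicates 2 and 3 and 1 and 1 without centring; among them Abcb1a, the drug efflux pump of the blood-brain barrier, rose by 1.30, and the list's mean ranged from 6.79 to 7.51 at E14 and from 7.17 to 7.59 at P0. Meninges and fibroblasts gave 1 rise, Ptgds, and 0 falls among 15; without E14 mixed A replicates 2 and 3 the list gave 3 rises and 3 falls, and its median went from 0.19 to -0.21. Avp, the hypothalamic hormone vasopressin, rose by 2.56 ± 0.52, with newborn values from 5.38 to 8.02. How far these cell types bear on the other changes was not tested.

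The 2 backgrounds were then compared by testing the difference between their changes. For 753 of 11974 genes (6.29%) the change differed at an adjusted p of 0.05 by limma. Of 5544 genes called in each background by itself, 5496 had the same sign and 48 the opposite. A further 2374 genes passed in mixed A only and 870 in mixed B only, but the difference was called for just 268 and 54 of them. Among the 753 genes, 424 had backgrounds that did not overlap at P0 but overlapped at E14, 36 the reverse, and 293 did not overlap at either age. The same was not counted over all tested genes, and E14 mixed A replicate 1 stood apart from replicates 2 and 3. These counts thus do not show at which age the backgrounds parted. The count of 753 differences rested on single arrays: it was 177 without E14 mixed B replicate 1 and 294 without E14 mixed A replicate 2, and 1340 without E14 mixed A replicate 1. It was 195 and 231 without E14 mixed B replicates 2 and 3, 353, 302 and 288 without P0 mixed B replicates 1, 2 and 3, and 260 without E14 mixed A replicates 2 and 3 together. It was 1005 without P0 mixed A replicate 3. The 3' to 5' difference of actin was higher in P0 mixed B than in P0 mixed A on every array, and its part in these values was not tested.

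Zfp612, a zinc finger protein, gave the largest difference. It lay at 8.21, 8.15 and 8.39 in E14 mixed A and 7.86, 8.04 and 8.17 in E14 mixed B, and at 4.55, 4.61 and 4.40 in P0 mixed A but 7.33, 7.10 and 7.24 in P0 mixed B. The embryonic groups met and the newborn groups stood over 2 units apart, giving -3.54 for mixed A against -0.56 for mixed B, a difference of -2.97 ± 0.16 (adjusted p = 5.1e-06). Rffl, a RING-type ubiquitin ligase, differed in the same way (-2.44 against -0.68; 4.81 to 6.59 over both newborn groups), as did Hyls1, a centriole protein needed for cilia (-2.68 against -0.98), and Hypk, a chaperone at the ribosome (-2.62 against -0.96). Rad1, of the DNA damage clamp, fell in mixed A (-2.63), while its -0.66 in mixed B did not pass, a difference called at adjusted p = 0.019 and at 0.058 without E14 mixed B replicate 2, and lost likewise without replicate 1 (0.054) or 3 (0.051) of that group. Adamts20, a secreted protease, fell in mixed A (-1.51) and gave 0.28 in mixed B.

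Opposite and tested changes were found for Slc9a7, a sodium-proton exchanger of the Golgi, which went from 6.67, 5.83 and 6.33 to 5.02, 5.17 and 5.30 in mixed A and from 6.57, 6.43 and 6.68 to 7.46, 6.92 and 7.04 in mixed B, a difference of -1.73 ± 0.28. Csnk2a1, the catalytic subunit of casein kinase 2, rose in mixed A (0.78) and fell in mixed B (-0.36), and Celf3, a neuronal RNA-binding protein, did likewise (0.46 and -0.41). Esco1, which acetylates cohesin outside DNA copying, fell in mixed A (-0.48) and rose in mixed B (0.50); its embryonic groups already stood apart, at 8.75, 8.80 and 8.65 against 7.96, 8.01 and 8.08. Hgh1 moved like Esco1 (-0.52 and 0.40). Zfp33b rose in mixed A (1.77) and gave -0.48 in mixed B, with an adjusted p of 0.013 that became 0.060 without E14 mixed A replicates 2 and 3. For Nipbl, the cohesin loader, the main probe set gave 0.77 and -0.44, but another probe set that is brighter on these arrays gave a difference of the opposite sign, -0.76, and for Igsf3 the difference of 1.36 turned to -0.30 with another probe set.

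**Figure D5:**
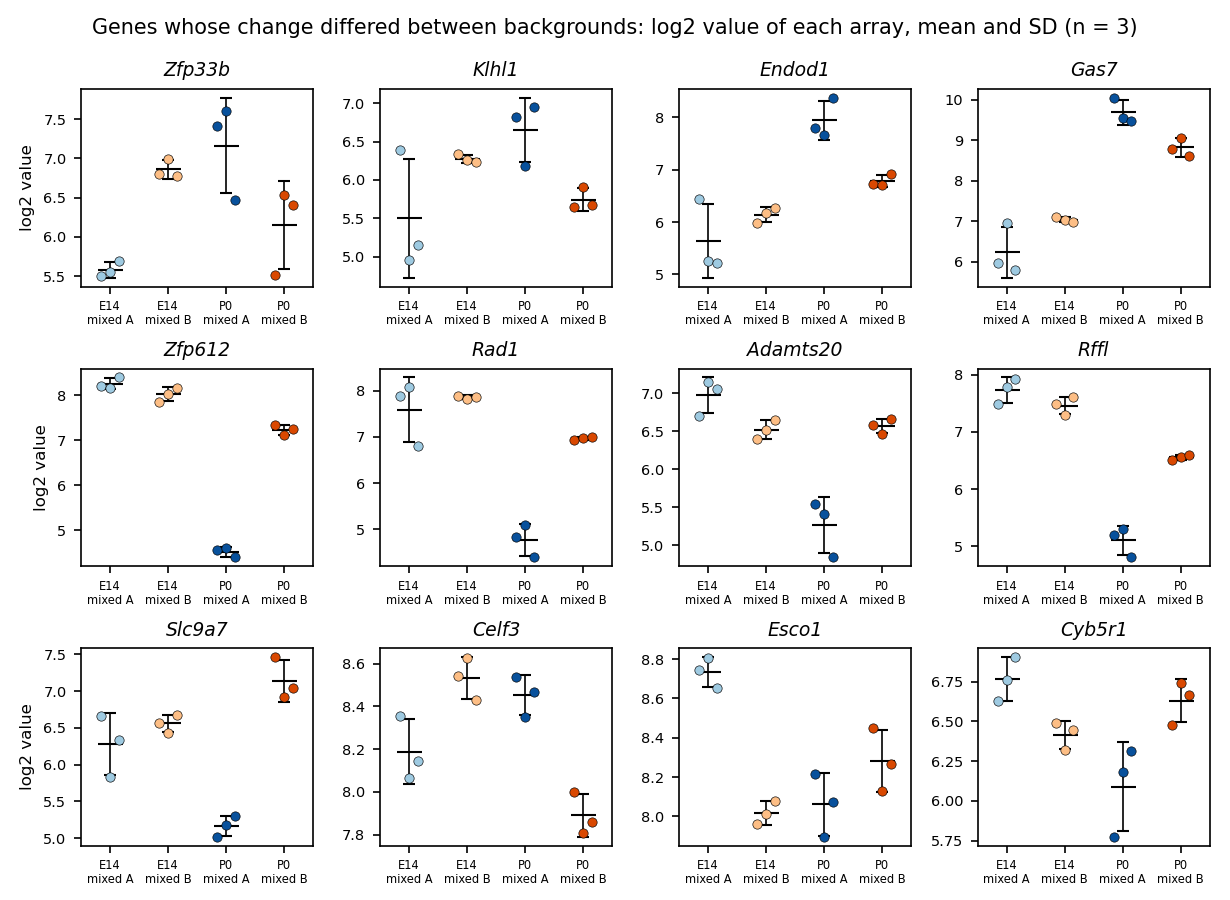
Deposited log2 values (vertical axes, each with its own range) of 12 genes whose change from E14 to P0 differed between the backgrounds; points are arrays, and bars are the mean and SD of 3. Zfp612, Rad1 and Rffl overlap at E14 and part at P0, while Klhl1 and Endod1 split E14 mixed A replicate 1 from replicates 2 and 3.

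Arrays outside the wild types gave another measurement of the same step. Brains labelled Lis1 ko/+ or Ndel ko/+, heterozygous for a knockout allele, 3 each at E14 and P0, were fitted by themselves in the same way; the labels do not say which mixed background they carry. In them 5428 of 12007 genes (45.2%) passed in both genotypes in 1 direction. Of 5253 wild-type calls that were tested there, 4221 (80.4%) were called with the same sign and 0 with the opposite sign, and these made up 78.7% of the heterozygotes' calls among genes tested in both fits. Dio2 rose by 3.88 in Lis1 ko/+ and 3.90 in Ndel ko/+, Hmga2 changed by -3.21 and -2.57, Caln1 by 3.49 and 2.92, and Gli3 by -2.0 and -1.87. Each of these 4 pairs had the sign found in the wild types.

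The change from E14 to P0 differed between Lis1 ko/+ and Ndel ko/+ for 2722 of 12007 genes (22.7%). Of 749 genes with a called difference between the wild-type backgrounds that were tested there, 494 (66.0%) were called in the heterozygotes with Lis1 ko/+ on the side of mixed A and Ndel ko/+ on the side of mixed B, and 0 the other way round; these were 18.3% of the heterozygotes' calls. For Zfp612 the changes were -3.29 in Lis1 ko/+ and -0.55 in Ndel ko/+, a difference of -2.74 (adjusted p = 1.4e-04). Rffl changed by -2.29 and -0.48, Csnk2a1 by 0.75 and -0.33, and Slc9a7 by -0.69 and 0.68. Genotype and background cannot be told apart in that comparison. Zfp33b gave 0.69 and -0.12, a difference that did not pass (adjusted p = 0.092), and those of Hypk (0.059), Celf3 (0.057) and Ramp1 (0.071) did not pass either.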

How the data were processed

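Total RNA of mouse brain was hybridised to Affymetrix arrays of 45101 probe sets. The deposited log2 values were made with RMA by the authors, per the submitters' processing notes, with no version named; the labels name no scan batch. RMA is meant to make arrays alike in distribution. The medians of the deposited arrays still ran from 5.34 to 5.39 at E14 and from 5.13 to 5.21 at P0. The precision rests on 3 arrays per group. Probe sets with 1 gene symbol numbered 34945. Each gene was read from its brightest probe set, by the mean of 78 arrays, and 11974 of 18193 genes with a group mean of at least 5.27, the median of all values, were tested. Each array was centred on its median gene. Changes were tested with limma 3.58.1 in R 4.3.3 (4 group means, trend in the variance), with Benjamini-Hochberg adjustment over all tested genes. The genes named were the 15 largest rises and falls without overlap between ages, up to 4 per list, and 8 and 5 per side of the differences between backgrounds. The 93 best known markers were left out of the ranking of rises and falls, but could be named as members of other lists. Other list members were named for their role after their values were seen. Members and lists were chosen with earlier results of these data known. Heterozygous Lis1 ko/+ and Ndel ko/+ brains (12 arrays) were fitted separately in the same way. Scaling, filter, probe set, samples and the replicate block were varied. The method was tested on simulated data.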

Additional observations from a re-analysis of the deposited data

Results flagged for a closer look

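For the genes below, the change from E14 to P0 in mixed A minus that in mixed B differed from 0 by limma's test of the difference itself, at an adjusted p below 0.05; the value in log2 units follows each gene. The first genes were taken for a large difference or for calls in opposite directions in the 2 backgrounds. The change was higher in mixed A for Zfp33b (2.25), Klhl1 (1.65), Gas7 (1.63), Endod1 (1.63), Gprin3 (1.60), Ly86 (1.48), Igsf3 (1.36), Nipbl (1.22), Csnk2a1 (1.14), Pth1r (1.04), Celf3 (0.87) and Stat2 (0.86). It was lower in mixed A for Zfp612 (-2.97), Rad1 (-1.97), Adamts20 (-1.79), Rffl (-1.76), Slc9a7 (-1.73), Hyls1 (-1.70), Hypk (-1.66), Xrn1 (-1.64), Esco1 (-0.98), Cyb5r1 (-0.92), Hgh1 (-0.92) and Dbt (-0.86). Without E14 mixed B replicate 1 alone, the adjusted p by limma rose to 0.10 for Car8, 0.11 for Klhl1, 0.097 for Stat2, 0.089 for Xrn1, 0.079 for Ly86, 0.077 for Endod1 and Gas7, 0.055 for Cyb5r1 and 0.054 for Rad1 and Pth1r, and other single arrays ended some of these calls too. Without E14 mixed A replicates 2 and 3, the difference of Klhl1 was 0.76 (0.20) and that of Endod1 0.82 (0.16), and the adjusted p was 0.083 for Gprin3, 0.060 for Zfp33b and 0.055 for Dbt. Without P0 mixed A replicate 3 it was 0.065 for Klhl1 and 0.051 for Stat2 and Xrn1.

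Listed genes of synapses, axons, glia, transport and growth factor binding also rose further in mixed A: Car8 (1.52), Gnaz (1.27), Ncald (1.14), Ramp1 (1.13), Lingo1 (0.90), Lrrtm2 (0.86), Slc6a11 (0.84), Lrrc4c (0.83), Olig1 (0.81), Cntn1 (0.74), Igfbp6 (0.68), Cbs (0.61) and Sptbn4 (0.57). Listed genes of division, chromatin, RNA, BMP response and serine synthesis fell further in mixed A: Noc3l (-1.14), Atad2 (-1.01), Ect2 (-0.93), Depdc1a (-0.78), Id4 (-0.58), Srsf6 (-0.54), Psat1 (-0.53) and Kpna2 (-0.43). Without E14 mixed A replicates 2 and 3, the difference shrank by over 1.5 times for Cntn1 (0.42), Ncald (0.73) and Olig1 (0.50), and it was 0.63 for Lingo1 and -0.69 for Atad2. In that fit 11 of these 21 genes lost the call by limma: Atad2 (0.22), Ect2 (0.22), Car8 (0.21), Kpna2 (0.15), Olig1 (0.14), Cbs (0.14), Depdc1a (0.12), Slc6a11 (0.093), Sptbn4 (0.070), Srsf6 (0.064) and Ramp1 (0.055). Cbs and Sptbn4 lost it also without E14 mixed A replicate 1 (0.052 and 0.051) and without P0 mixed A replicate 3 (0.055 and 0.051). The 3' to 5' difference of the actin control was higher in P0 mixed B, E14 mixed A replicates 2 and 3 stood apart, and the part of either in these values was not tested. Array batch and background cannot be told apart.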

How the results depend on the processing

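Of 228 named changes, 197 passed the threshold under every alternative tried, and of 25 named differences between the backgrounds 9 did; 37 of 56 list medians kept their sign. Without centring, 1646 genes rose and 4238 fell (550 and 1302 at least 2-fold). A filter at the 75th percentile left 5135 changed genes in mixed A, 4199 in mixed B and 3479 in both (1808 rises and 1671 falls; 461 and 478 at least 2-fold). With every probe set tested by itself, these counts were 14389, 11482, 9374, 4756, 4618, 1483 and 1614, with 1554 differences; fewer or more features tested set these counts. Differences between backgrounds numbered 1394 with all 24 wild-type arrays and 260 without E14 mixed A replicates 2 and 3; the cause was not tested. Leaving out 1 array at a time gave 177 to 1340 differences and 4608 to 5767 joint calls. The differences of Igsf3 (-0.30) and Nipbl (-0.76) turned with the probe set of highest mean over the 12 arrays. Of 2509 genes called in both backgrounds with several tested probe sets, 2051 had the same sign in all of them. In 130 of them, probe sets were called in opposite directions.

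Replicate numbers did not pair the arrays: deviations of same-numbered arrays correlated at -0.163 to 0.054. With the number as a replicate block, differences fell to 175 and joint calls were 4850, and circadian rises went from 8 to 4. Arrays, 3 per group, limit what could be detected.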
